A study of Mus musculus with 8 samples.

Results

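Pre-CD8 DCs, the bone marrow precursors of the CD8a+ classical dendritic cell (cDC1), were compared with the Zeb2hi fraction of common dendritic cell progenitors (CDPs). The comparison takes 5 of the 8 arrays of the series by their titles: the 2 arrays of pre-CD8 DCs and the 3 arrays of Zeb2hi CDPs. The 3 arrays of Zeb2low CDPs are given beside them where a level helps to place a gene. Every group was sorted by flow cytometry from the bone marrow of mice heterozygous for a Zeb2-GFP fusion, an allele in which the Zeb2 protein carries a green fluorescent tag, and every sort went into medium with Flt3 ligand. No group therefore comes from a mouse without the reporter. Surface markers of the sorts are not stated, and neither is whether arrays of 1 group stem from different mice, so each p-value reflects the spread between these arrays alone, which may be technical. A gene for a surface protein used in a sort would differ by selection, and those proteins are not known here.

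Dendritic cells sample antigen and present it to T cells. CDPs give rise to plasmacytoid DCs and to the classical lineages, cDC1 and cDC2. cDC1s take up dead cells and present their antigens to CD8+ T cells on MHC class I, and depend on the transcription factors Irf8, Batf3 and Id2. Zeb2 is a zinc finger repressor that binds E-boxes and, in DC progenitors, opposes the cDC1 fate, so that progenitors low in Zeb2 lean to it.

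In all, 2352 of the 13356 genes tested differed between pre-CD8 DCs and Zeb2hi CDPs (17.6% of them, limma on log2 signals over all 8 arrays, Benjamini-Hochberg adjusted p under 0.05, which is what "past the test" and "adjusted p" mean throughout). MHC class II genes, cDC1 genes and the regulator Id2 were far higher in pre-CD8 DCs. Among the gene lists, however, mature neutrophil genes had the largest median rise (2.37, against 2.09 for cDC1 genes), and it differed between the 2 pre-CD8 DC arrays. Progenitor genes such as Cd34 and Cd93, the G1 kinase gene Cdk6, and most measured genes of DNA replication (23 of 30) and of serine, one-carbon and nucleotide synthesis (18 of 23) were lower. The lower genes were more numerous (1483, or 11.1%) than the higher ones (869, or 6.51%), but the higher ones reached further: 151 rose and 45 fell at least 4-fold, and 44 rose and 5 fell at least 8-fold. With each array centred on its own median the calls split almost evenly (1090 higher and 1156 lower), so the excess of lower genes rests on the scaling. In a fit with the mean of mature neutrophil genes as a covariate, added after seeing the data, 365 genes rose and 662 fell. The number of calls also rests on single arrays: it was 487 higher and 806 lower without pre-CD8 DC array 1, 463 and 709 without Zeb2hi array 2, and 484 and 773 without Zeb2hi array 3.

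**Figure D1:**
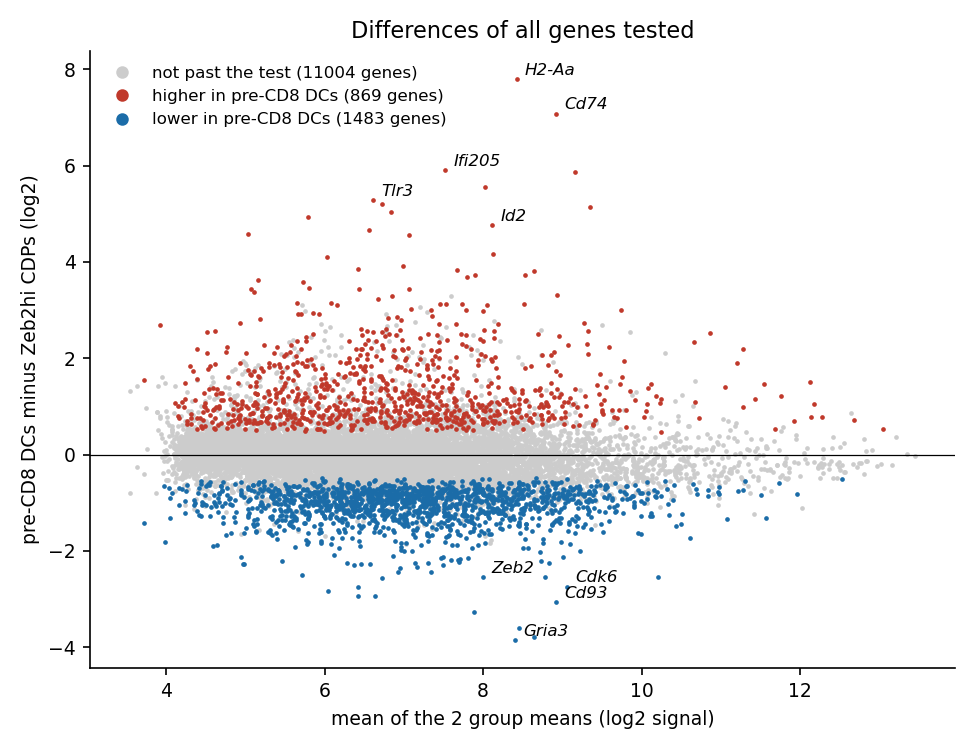
Difference of each of the 13356 genes tested (pre-CD8 DCs minus Zeb2hi CDPs, log2) against its mean of the 2 group means (log2 signal). Red points are the 869 genes that rose and blue points the 1483 that fell. The upper edge reaches 7.80 (H2-Aa) and the lower edge -3.84 (Gria3).

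The H2-Aa and H2-Eb1 promoters are shown because these genes, with H2-Ab1, are among the genes that rose most and are known to be switched on together through a CCAAT box and neighbouring elements. The sequences are the 120 bases before the start in RefSeq's annotation of GRCm38.p6, 5′ to 3′ on the gene's strand. Capitals mark CCAAT or its reverse complement ATTGG. The H2-Aa window is chr17:34287824-34287943 on the minus strand and that of H2-Eb1 is chr17:34305747-34305866 on the plus strand.
H2-Aa: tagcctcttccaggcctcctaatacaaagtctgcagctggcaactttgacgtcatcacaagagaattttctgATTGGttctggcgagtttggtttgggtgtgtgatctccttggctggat
H2-Eb1: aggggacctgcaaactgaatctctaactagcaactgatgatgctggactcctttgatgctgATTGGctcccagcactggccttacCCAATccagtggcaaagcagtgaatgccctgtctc
H2-Aa held 1 match, with its first base 48 bases before the start. H2-Eb1 held 2, with first bases 59 and 35 bases before it. The 5 letters are common: 33.8% of all 32851 RefSeq promoter windows held them on either strand within 250 bases before the start, and 34.5% of the windows of the genes tested did. The E-box letters CACCTG, in either direction, were in 17.2% of all windows and in neither of these, which says nothing about binding elsewhere.

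The labels were first set against marker genes. Zeb2 itself was 9.45, 9.05 and 9.32 (log2 signal) on the Zeb2hi arrays and 6.93 and 6.53 on the pre-CD8 DC arrays, a 5.83-fold lower signal (log2 difference -2.54 ± 0.20, limma standard error, adjusted p = 0.000177). Since the progenitors were sorted on the Zeb2 reporter, this checks the labels and is not a finding. Of the markers that define cDC1s, Clec9a (a receptor for dead cells), Tlr3, Batf3 and the chemokine receptor Xcr1 rose. Xcr1 was 7.57 on pre-CD8 DC array 1 but only 5.03 on array 2, against 3.52 to 3.61 in Zeb2hi CDPs, and it did not pass in a fit with the mean of mature neutrophil genes as a covariate (adjusted p = 0.165). Cadm1, an adhesion molecule of cDC1s, did not pass (1.40 ± 0.42, adjusted p = 0.0528), and Cd8a, which names the CD8a+ DC, passed narrowly (1.10 ± 0.31, adjusted p = 0.0393). Its call was lost in 10 of 17 alternatives, among them the fits without pre-CD8 DC array 1 (adjusted p = 0.182), without any 1 Zeb2hi array and without Zeb2low array 2 or 3. Flt3, the receptor that defines CDPs, was high in both groups (9.57 ± 0.07 in Zeb2hi CDPs and 9.59 ± 0.03 in pre-CD8 DCs, SD, n = 3 and 2), whereas Csf1r, the other CDP receptor, fell 3.37-fold.

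H2-Aa and Cd74 had the largest differences of all genes tested. H2-Aa, the alpha chain of I-A, was 4.76, 4.85 and 3.95 on the Zeb2hi arrays and 12.64 and 12.01 on the pre-CD8 DC arrays. That is a 223-fold higher signal (7.80 ± 0.33, adjusted p = 7.54e-06), from near the array medians (4.91 to 5.14) to among the strongest signals. Cd74, the invariant chain that guides class II molecules to the endosome, went from 4.75, 5.93 and 5.44 to 12.47 and 12.44 (135-fold, adjusted p = 2.71e-05). H2-Ab1 and H2-Eb1, the beta chains of I-A and I-E, rose 58.2-fold and 47.3-fold. Of the 14 class II pathway genes measured, 9 rose and none fell, against 6.51% of all genes that rose, with a median difference of 1.55 (all genes -0.02). With the neutrophil covariate 7 rose.

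Regulators and loading factors of class II followed. Ciita, the coactivator that drives class II transcription, was 4.85, 4.35 and 4.30 in Zeb2hi CDPs and 8.30 and 8.40 in pre-CD8 DCs (14.4-fold, adjusted p = 1.85e-05), and is named here after its value was seen. H2-Ob and H2-Oa, the chains of the DO protein that restrains peptide loading, rose 5.34-fold and 3.93-fold (adjusted p = 0.0012 and 0.00455). The RFX subunit genes that bind the class II promoters did not pass: Rfx5 differed by 0.22, Rfxap by 0.47 and Rfxank by 0.01. H2-DMa, part of the peptide editor, and Ctss, the protease that trims the invariant chain, did not pass either (0.65 and 0.38). In bulk samples, more cells with a transcript and more of it per cell cannot be told apart.

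MHC class I genes passed in both directions. Of 15 measured, 2 rose (13.3%, against 6.51% of all genes) and 2 fell (13.3%, against 11.1%), with a median of 0.09. Tap1 and Tap2, the peptide transporter subunits, were 0.77 and 0.83 higher. Both lost their calls without pre-CD8 DC array 1 (adjusted p = 0.16 and 0.0845) or Zeb2hi array 2, and Tap1 also without pre-CD8 DC array 2 (adjusted p = 0.051) or Zeb2hi array 1 or 3. The chaperone gene Canx (-0.77, adjusted p = 0.00833) and Erap1, which trims peptides (-0.88, adjusted p = 0.0155), fell, 1 of them without pre-CD8 DC array 1 or Zeb2hi array 2. None of these 4 genes passed with the neutrophil covariate, and B2m, the light chain, differed by 0.14 (not past the test).

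**Figure D2:**
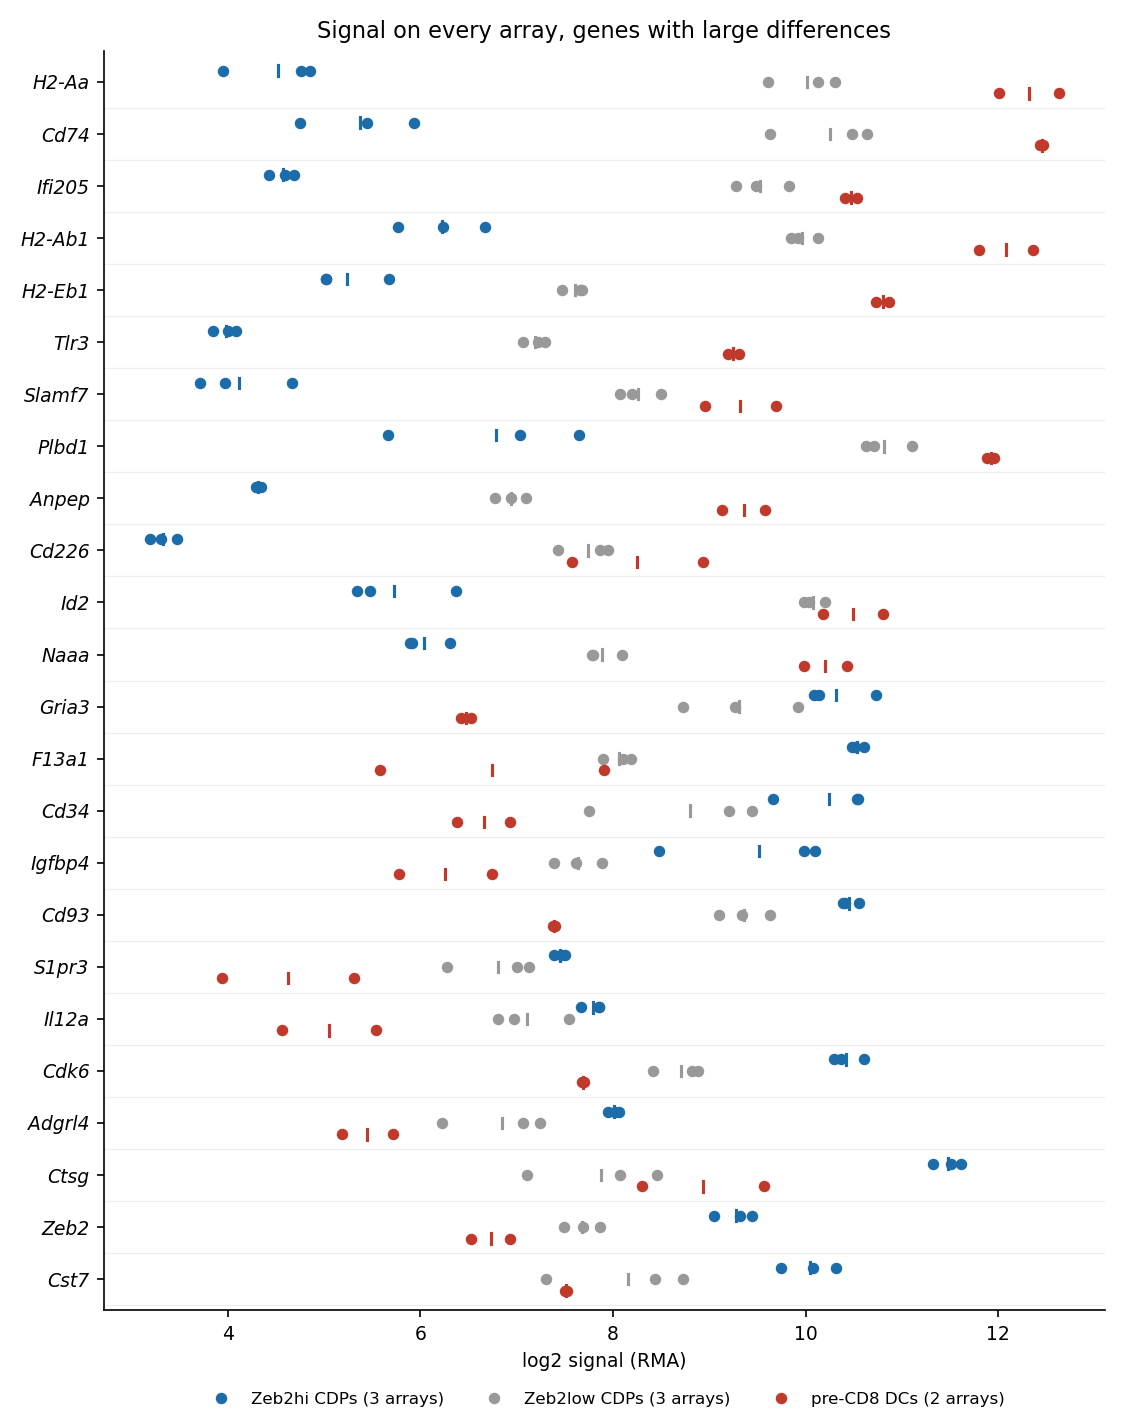
Log2 signal of 24 genes with large differences on each array, with a vertical tick at each group mean. Points of the pre-CD8 DCs (red, 2 arrays) and the Zeb2hi CDPs (blue, 3 arrays) do not overlap for any gene shown. This follows from the choice of genes, since it held for all 2352 genes past the test. The Zeb2low CDPs (grey, 3 arrays) are drawn beside them. The 2 pre-CD8 DC arrays lie close for Cd74 (12.47 and 12.44) and far apart for F13a1 (7.91 and 5.58).

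Among transcription factors of DCs and progenitors, 11 of 35 measured rose (31.4%, against 6.51% of all genes) and 8 fell (22.9%, against 11.1%). With the neutrophil covariate 6 rose and 5 fell. Id2, an inhibitor of E proteins that cDC1s need, was 6.37, 5.34 and 5.48 on the Zeb2hi arrays and 10.18 and 10.80 on the pre-CD8 DC arrays (27.2-fold, adjusted p = 7.44e-05). Bcl6, a repressor needed for cDC1s, rose 8.64-fold from 6.07, 6.69 and 6.72 to 9.75 and 9.45 (adjusted p = 0.000391). Batf3, an AP-1 factor that sustains Irf8 in committed cDC1s, rose 5.66-fold. Its arrays were 6.25, 5.90 and 6.03 in Zeb2hi CDPs and 8.18 and 8.94 in pre-CD8 DCs.

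Smaller rises that held in every alternative in which the gene was measured were those of Mycl (2.60-fold, adjusted p = 0.00145), a Myc relative of the classical DC lineage, Irf4 (2.42-fold, adjusted p = 0.00363), better known from cDC2s and at low signal in both groups, and Zbtb46 (2.28-fold, adjusted p = 0.00238), which marks classical DCs. Beside Zeb2, the factors that fell and kept their calls in every alternative were ones of stem and progenitor cells: Myb (-1.45 ± 0.21), Runx1 (-1.43 ± 0.17), Meis1 (-1.15 ± 0.16) and Hoxa9 (-1.09 ± 0.19), each with adjusted p at or below 0.00673. Meis1 was 6.63, 6.52 and 6.73 in Zeb2hi CDPs and 5.58 and 5.38 in pre-CD8 DCs. The other 3 that fell were less stable. Tfec, a factor of the MiT family (-2.43 ± 0.52, adjusted p = 0.0146), was lost without pre-CD8 DC array 2 (adjusted p = 0.0771). Mef2c, a MADS-box factor (-0.90 ± 0.20, adjusted p = 0.0175), was lost without pre-CD8 DC array 1 (adjusted p = 0.0871) or Zeb2hi array 2 or 3. Etv6, an ETS repressor (-0.58 ± 0.16, adjusted p = 0.0414), was lost in 13 of 18 alternatives, including the fits without either pre-CD8 DC array, any 1 Zeb2hi array, or Zeb2low array 2 or 3.

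Irf8, which specifies cDC1s, was already high in Zeb2hi CDPs. Its log2 signal was 9.74, 10.67 and 10.54 there and 10.64 and 10.09 in pre-CD8 DCs (difference 0.05 ± 0.31, adjusted p = 0.931). The groups overlapped. Nfil3, an early cDC1 factor, did not pass (0.38 ± 0.23, adjusted p = 0.292), nor did the myeloid master regulator Spi1 (0.38 ± 0.27, adjusted p = 0.378) or Tcf4, the E protein of plasmacytoid DCs (-0.65 ± 0.24, adjusted p = 0.0986). A difference that misses the test is not shown to be absent. The count of higher factors was 7 without pre-CD8 DC array 1, where Cebpe, Stat3, Relb, Rbpj and Spib were among the calls lost.

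Of the 19 cDC1 genes measured (22 listed), 18 rose and none fell, with a median of 2.09. With the neutrophil covariate 13 rose. Ifi205, an interferon-inducible gene long used as a CD8a+ DC marker, was 4.69, 4.59 and 4.43 in Zeb2hi CDPs and 10.41 and 10.53 in pre-CD8 DCs (59.7-fold, adjusted p = 1.96e-06). Tlr3, the endosomal receptor for double-stranded RNA, went from 3.84 to 4.08 on the 3 Zeb2hi arrays to 9.19 and 9.31 (38.7-fold, adjusted p = 1.61e-06). Naaa, an acid amidase of lysosomes, rose 18.0-fold. For each of these 3 genes the arrays of a group lay within 0.5 of each other, a small spread beside the difference. The list's members were measured partly because they are high in pre-CD8 DCs, since a gene needed a signal above the array's 40th percentile on at least 2 arrays. The same filter applied to every list.

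Of the 19 core classical DC genes measured, 13 rose and none fell, with a median of 1.24. With the neutrophil covariate 9 rose. P2ry10, a lysophospholipid receptor gene, rose 23.8-fold from low signals (2.61, 2.68 and 2.94) to 7.14 and 7.49. Itgax, which encodes CD11c, was 5.95, 5.97 and 5.60 in Zeb2hi CDPs and 7.88 and 7.90 in pre-CD8 DCs (4.13-fold, adjusted p = 0.000186). Tbc1d8, a gene for a protein with a Rab GTPase-activating domain, rose 4.89-fold. Ccr7, the receptor that takes mature DCs to lymph nodes, differed by -0.41 and did not pass.

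Genes of the neighbouring DC lineages passed in both directions. The shares that rose were 38.5% of cDC2 genes and 50% of plasmacytoid DC genes, against 6.51% of all genes. Those that fell were 23.1% and 14.3%, the latter near the 11.1% of all genes. Of 13 cDC2 genes, 5 rose and 3 fell: Notch2, a receptor needed by cDC2s, was 2.79-fold higher (adjusted p = 0.0067, and 0.0778 with the neutrophil covariate, under which 2 of the 13 rose), while Tmem176a fell from 8.04, 8.12 and 7.85 to 6.04 and 5.97 (adjusted p = 0.00182). Of 14 plasmacytoid DC genes, 7 rose and 2 fell, with 4 rising without any 1 of the Zeb2hi arrays and 3 without pre-CD8 DC array 1, and 1 falling without pre-CD8 DC array 2. Irf7, which drives type I interferon, rose 5.49-fold, Ccr9, a gut-homing receptor, 4.68-fold and Tlr9, the CpG DNA sensor, 2.26-fold. Cox6a2, a mitochondrial subunit gene typical of plasmacytoid DCs, was 8.95, 8.58 and 8.30 in Zeb2hi CDPs and 7.18 and 7.16 in pre-CD8 DCs (-1.44 ± 0.27, adjusted p = 0.00854). Siglech, a plasmacytoid DC surface lectin, differed by 0.57 and did not pass.

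Receptors for antigen, danger and position were next. Of 11 costimulation and checkpoint genes, 8 rose and none fell, with a median of 1.82. Cd226, a receptor of the nectin-binding family, was 3.48, 3.19 and 3.30 in Zeb2hi CDPs and 7.57 and 8.93 in pre-CD8 DCs (30.5-fold, adjusted p = 0.000104). Cd86, a ligand of CD28, rose 7.58-fold from 4.16, 3.94 and 4.51 to 7.01 and 7.24, and the maturation marker Cd83 rose 4.72-fold. Cd40 did not pass (0.34).

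Of 17 genes of Toll-like receptors and their signalling, 6 rose and none fell. Beside Tlr3, these included Tlr12 (3.28-fold, adjusted p = 0.000765), a profilin receptor of cDC1s, and Tlr4 (2.10 ± 0.35, adjusted p = 0.00538), the receptor for lipopolysaccharide. With the neutrophil covariate Tlr4 did not pass (adjusted p = 0.0635) and 3 of the 17 rose. Of 17 C-type lectin receptor genes, 8 rose (47.1%, against 6.51% of all genes) and 1 fell (5.88%, against 11.1%). Clec4b1 was 3.35, 3.37 and 3.25 against 5.22 and 6.58, and Clec4a1 was 4.94, 4.12 and 4.28 against 6.91 and 6.51, so that both were low in every Zeb2hi array. Clec2d, a ligand of NK cell receptors, was the one that fell (-1.29 ± 0.26), and it did not pass without pre-CD8 DC array 2 (adjusted p = 0.052).

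Of 13 chemokine receptor genes, 4 rose (30.8%, against 6.51% of all genes) and 1 fell (7.69%, against 11.1%). For 3 of the 13 the signal was low on every Zeb2hi array. With a signal filter at the 60th percentile 9 were measured, of which 1 rose and 1 fell. Cxcr3, the receptor for interferon-induced chemokines, was 4.64, 4.67 and 4.83 in Zeb2hi CDPs and 8.22 and 8.07 in pre-CD8 DCs (10.8-fold, adjusted p = 7.89e-06). Cx3cr1, the fractalkine receptor, was 9.08, 8.49 and 8.48 against 7.23 and 7.84 (-1.15 ± 0.27, adjusted p = 0.0199), a call lost without pre-CD8 DC array 1 (adjusted p = 0.123). Of 15 integrin genes, 8 rose and none fell, 4 of them without pre-CD8 DC array 1 and 5 without Zeb2hi array 3, while 1 fell without Zeb2low array 1. Itgb2, the beta chain shared by the leukocyte integrins, rose 9.90-fold from 6.98, 7.80 and 7.05 to 11.10 and 10.07. With the neutrophil covariate 4 integrin genes rose.

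Several of the largest rises fell outside these groups. Slamf7, a self-ligand of immune cells, was 4.66, 3.97 and 3.71 in Zeb2hi CDPs and 8.96 and 9.69 in pre-CD8 DCs (37.1-fold, adjusted p = 5.12e-05). Anpep, the aminopeptidase CD13, went from 4.34, 4.31 and 4.29 to 9.58 and 9.13 (33.0-fold). Plbd1, a lysosomal phospholipase-like gene, went from 7.03, 7.65 and 5.67 to 11.96 and 11.89 (35.3-fold). Its Zeb2hi arrays spread over almost 2 log2 units, yet stayed far below both pre-CD8 DC arrays. The shares of lysosomal protease and hydrolase genes that rose and fell were 36.4% and 9.09%, against 6.51% and 11.1% of all genes. Of 22 lysosomal protease and hydrolase genes, 8 rose and 2 fell, and only 3 rose without pre-CD8 DC array 1 and 4 without Zeb2hi array 2 or 3, while none fell without pre-CD8 DC array 2 or Zeb2hi array 2 and 1 without Zeb2hi array 3 or Zeb2low array 2 or 3.

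Progenitor genes were the counterpart. Of 18 stem and progenitor cell genes measured, 9 fell (11.1% of all genes did) and 1 rose (5.56%, against 6.51% of all genes), with a median of -1.12. Cd34, the sialomucin of early progenitors, was 9.67, 10.53 and 10.54 in Zeb2hi CDPs and 6.93 and 6.38 in pre-CD8 DCs (12.1-fold lower, adjusted p = 0.00246). Cd93, a C-type lectin-like surface protein of early progenitors, went from 10.56, 10.39 and 10.41 to 7.38 and 7.40 (8.36-fold lower, adjusted p = 5.08e-05). Adgrl4, an adhesion receptor shared with endothelium, was 5.90-fold lower. Kit, the stem cell factor receptor, went the other way (7.34, 8.13 and 8.14 against 8.72 and 9.07, 1.02 ± 0.26, adjusted p = 0.0295), and was lost without pre-CD8 DC array 1 (adjusted p = 0.0622) or 2 (adjusted p = 0.134), while no other member of the list rose. Without Zeb2low array 1, 2 members rose.

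The gene that fell most was Gria3, which encodes a glutamate receptor subunit: 10.73, 10.09 and 10.14 in Zeb2hi CDPs against 6.53 and 6.43 (14.4-fold lower, adjusted p = 0.000306). F13a1, coagulation factor XIII of monocytic cells, was 10.61, 10.52 and 10.48 against 7.91 and 5.58 (13.9-fold lower, adjusted p = 0.00264), and both pre-CD8 DC arrays lay below although they were over 2 units apart. Il12a, the p35 chain of interleukin-12, was 7.85, 7.67 and 7.85 against 4.57 and 5.53 (6.68-fold lower). Igfbp4, which binds insulin-like growth factors, was 9.58-fold lower, and S1pr3, a sphingosine-1-phosphate receptor, 7.11-fold lower. The shares of cytokine receptor genes that rose and fell were 16% and 8%, against 6.51% and 11.1% of all genes. Among 25 cytokine receptor genes, 2 fell, Csf1r (-1.75 ± 0.32) and Il6st, the shared gp130 chain (-1.22 ± 0.16), and 4 rose, of which 1 rose without pre-CD8 DC array 1 or Zeb2hi array 2 and 2 without Zeb2hi array 3.

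Primary granule genes are made by early granulocyte and monocyte progenitors. Ctsg, the protease cathepsin G, was 11.32, 11.52 and 11.61 in Zeb2hi CDPs and 9.57 and 8.30 in pre-CD8 DCs (5.85-fold lower, adjusted p = 0.00609). Of 8 genes measured 3 fell, with a median of -0.81. Mpo (-1.11 ± 0.65, adjusted p = 0.28) and Elane (0.15 ± 0.66, adjusted p = 0.905), myeloperoxidase and neutrophil elastase, did not pass. Mpo was at 11.75 and 11.21 on the pre-CD8 DC arrays, and Elane was at 10.31 and 9.46.

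**Figure D3:**
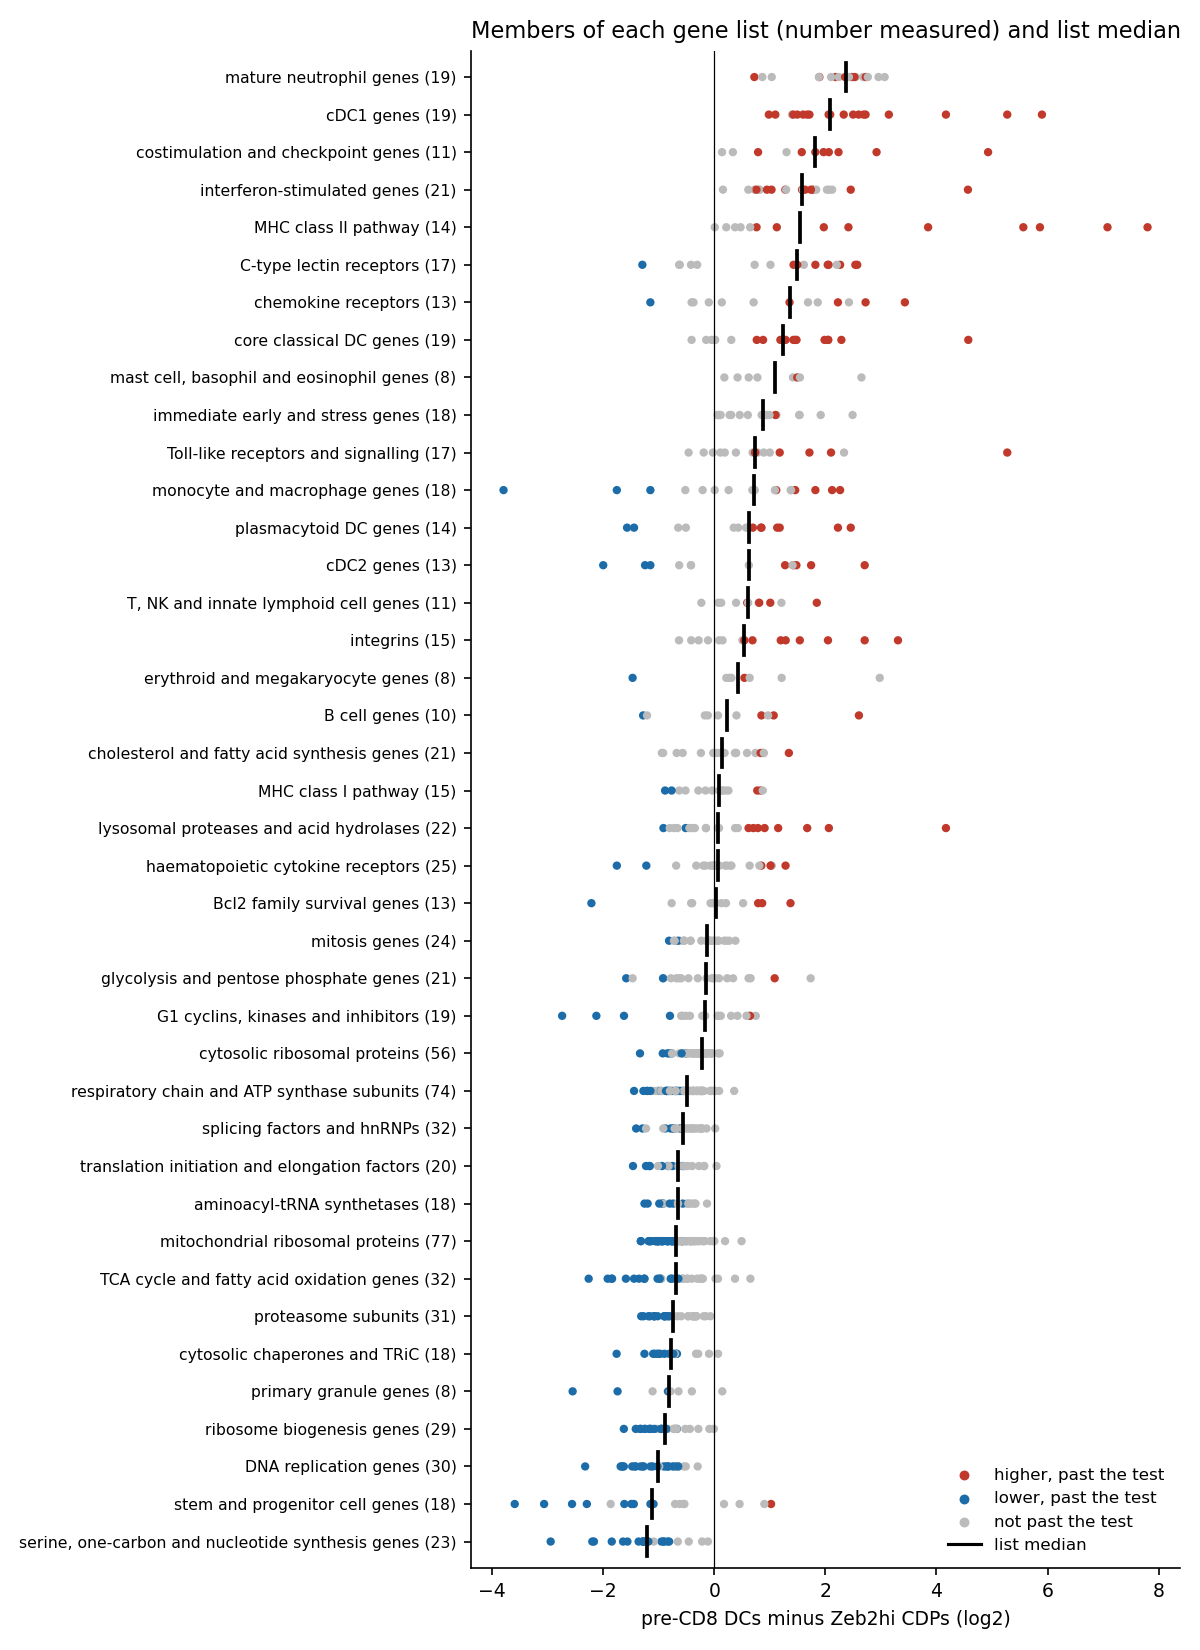
Difference of every measured member (points, pre-CD8 DCs minus Zeb2hi CDPs, log2) of the gene lists described, other than the transcription factors, with the number measured and the list median (black line), ordered by median. The medians run from -1.20 (serine, one-carbon and nucleotide synthesis) to 2.37 (mature neutrophil genes, of which 7 of 19 rose). Red points rose, blue points fell and grey points did not pass.

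Among 19 genes of G1 cyclins, kinases and inhibitors, 4 fell (21.1%, against 11.1% of all genes) and 1 rose (5.26%, against 6.51%). Cdk6, the G1 kinase of blood progenitors, was 10.60, 10.30 and 10.37 in Zeb2hi CDPs and 7.70 and 7.67 in pre-CD8 DCs (6.67-fold lower, adjusted p = 8.52e-05). Its partner Ccnd2, cyclin D2, was 9.84, 10.15 and 10.20 against 7.82 and 8.07 (4.35-fold lower, adjusted p = 0.00022), and Cdk4 was 3.08-fold lower. The arrays of the groups did not overlap for any of these, as for all 2352 genes past the test. The other one that fell was Rbl1 (-0.80), a relative of the retinoblastoma gene Rb1, which itself rose (0.64, adjusted p = 0.05) but not without pre-CD8 DC array 1 or 2, Zeb2hi array 2 or 3 or Zeb2low array 2 or 3. The inhibitor genes Cdkn1b (0.63), Cdkn1c (0.07) and Cdkn2c (0.06) did not pass.

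All 30 DNA replication genes measured lay lower on both pre-CD8 DC arrays than on every Zeb2hi array, a pattern that 27.1% of all genes showed, and 23 passed the test (median -1.01). Gins1, a subunit of the replicative helicase, was 8.37, 8.32 and 8.30 against 6.13 and 5.88 (5.01-fold lower, adjusted p = 0.000177). Pola1, the catalytic subunit of DNA polymerase alpha, was 8.65, 8.33 and 8.21 against 6.52 and 6.91 (3.21-fold lower). Mcm3, one of the helicase ring subunits, was 3.13-fold lower. With arrays centred on their medians 21 of the 30 passed as lower, with quantile normalization 20 and with the neutrophil covariate 13. Without pre-CD8 DC array 1 the number was 13, without Zeb2hi array 2 it was 15 and without Zeb2hi array 3 it was 14.

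Of 24 mitosis genes measured, 2 fell (Cdk1, -0.81, and Birc5, -0.65), a share of 8.33% that is near the 11.1% of all genes, none rose, and the median was -0.14 (-0.40 from array 1 of the pre-CD8 DCs alone and near 0 from array 2 alone). None passed without pre-CD8 DC array 1 or Zeb2hi array 2, Birc5 was also lost without Zeb2hi array 1 or 3, and 4 passed without Zeb2low array 1. Mki67, the proliferation antigen Ki-67, was 10.47, 10.04 and 9.98 in Zeb2hi CDPs and 10.20 and 10.56 in pre-CD8 DCs (0.22 ± 0.21, adjusted p = 0.521). Cyclin A2 (Ccna2) differed by 0.02 at a signal of 10.70 in pre-CD8 DCs. The replication and mitosis lists were not tested against each other.

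**Figure D4:**
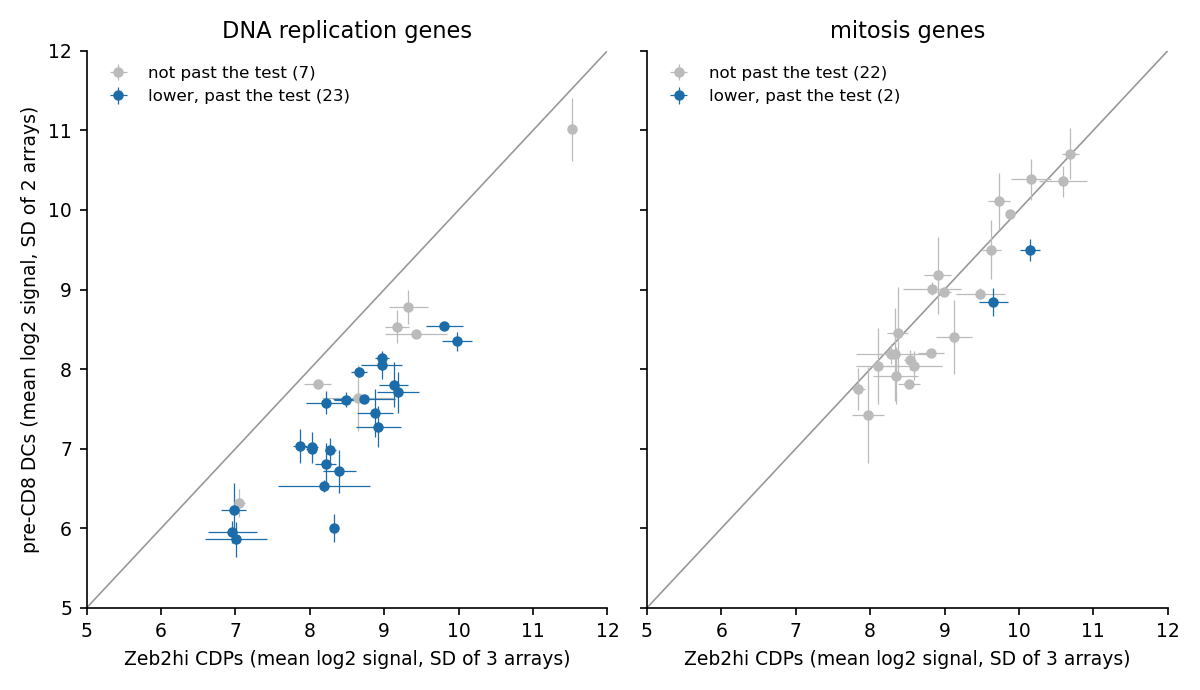
Group mean log2 signal in pre-CD8 DCs against Zeb2hi CDPs for 30 DNA replication genes (left) and 24 mitosis genes (right), with bars for the SD over 2 and 3 arrays and the line of equal signal. All 30 replication genes lie below the line, and blue points (23 and 2 genes) passed the test.

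Synthesis genes fell broadly. Of 23 genes of serine, one-carbon and nucleotide synthesis, 18 fell and none rose (median -1.20). All 23 lay lower on both pre-CD8 DC arrays than on every Zeb2hi array, as did 27.1% of all genes. Phgdh, the entry enzyme of serine synthesis, was 7.28, 8.60 and 8.44 against 6.01 and 4.31 (7.70-fold lower, adjusted p = 0.00975). Umps, which completes the pyrimidine ring pathway, was 8.70, 8.89 and 8.78 against 6.60 and 6.65 (4.49-fold lower, adjusted p = 0.000148). Shmt2, the mitochondrial enzyme that splits serine, was 4.58-fold lower. With the neutrophil covariate 10 of the 23 fell. Without pre-CD8 DC array 1, 11 of the 23 passed.

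In mitochondria, Idh2, an isocitrate dehydrogenase, was 9.47, 10.24 and 10.15 against 7.90 and 7.49 (4.79-fold lower, adjusted p = 0.0012). Of 32 genes of the TCA cycle and fatty acid oxidation, 15 fell and none rose (median -0.69), with 8 without pre-CD8 DC array 2 and 9 without Zeb2hi array 2 or 3. Of 77 mitochondrial ribosomal protein genes 37 fell (median -0.68). That count was 19 without pre-CD8 DC array 1, 20 without array 2, 11 without Zeb2hi array 2 and 16 without Zeb2hi array 3. Mrpl11, of the large subunit, went from 9.25, 9.35 and 9.22 to 8.04 and 7.86. Respiratory chain genes gave 19 lower of 74 (median -0.50), but only 4 without Zeb2hi array 2 or 3, 8 without pre-CD8 DC array 2 and 11 without array 1, where 1 also rose.

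For glycolysis the shares were near those of all genes. Of 21 glycolysis and pentose phosphate genes, 2 fell (9.52%, against 11.1% of all genes) and 1 rose (4.76%, against 6.51%), with a median of -0.14 that was 0.28 from pre-CD8 DC array 1 alone and -0.64 from array 2 alone. None of them fell without pre-CD8 DC array 2 or Zeb2hi array 2 or 3, 5 fell without Zeb2hi array 1, and 1 without Zeb2low array 2 or 3. None rose without pre-CD8 DC array 1 or Zeb2hi array 2 or 3, 3 rose without pre-CD8 DC array 2 and 2 without Zeb2low array 3. Of 21 genes of cholesterol and fatty acid synthesis, 3 rose (14.3%, against 6.51% of all genes) and none fell, among the risers Hmgcs1, which makes HMG-CoA (6.42, 6.61 and 6.70 against 7.29 and 7.63, adjusted p = 0.00975). Without Zeb2hi array 1 or Zeb2low array 1, 2 fell.

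For protein synthesis and turnover, 16 of 29 ribosome biogenesis genes fell (median -0.89), 8 of 18 aminoacyl-tRNA synthetases (median -0.66), 9 of 20 translation factors (median -0.65), 13 of 18 cytosolic chaperones (median -0.79) and 15 of 31 proteasome subunits (median -0.74). None of these rose. Hspa9, the mitochondrial Hsp70 placed in the chaperone list, was 9.51, 9.75 and 9.63 against 7.71 and 8.03 (3.38-fold lower, adjusted p = 0.00044). Eif3e, of the initiation factor eIF3, was 9.64, 9.61 and 9.56 against 8.26 and 8.02 (2.76-fold lower, adjusted p = 0.000633). Wdr12, needed to process the large ribosomal subunit, was 3.09-fold lower, and Psmd1, a regulatory subunit of the proteasome, 2.42-fold lower.

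These counts rest on single arrays. Without pre-CD8 DC array 1 they were 9 for ribosome biogenesis, 5 for synthetases, 4 for translation factors, 7 for chaperones and 9 for the proteasome. Ribosome biogenesis also had 9 without Zeb2hi array 2 or 3, synthetases 4 and 5 without those arrays, translation factors 5 without Zeb2hi array 2, and the proteasome 5 without pre-CD8 DC array 2 and 6 without Zeb2hi array 2 or 3. Splicing factors gave 7 lower of 32 (3 without pre-CD8 DC array 2 or Zeb2hi array 2 or 3, and 12 without Zeb2low array 1). Cytosolic ribosomal proteins, whose probe sets can also detect processed pseudogenes, gave 7 lower of 56 (12.5%, against 11.1% of all genes) and a median of -0.22, with 2 to 4 without each pre-CD8 DC or Zeb2hi array in turn. With the neutrophil covariate the counts of lower genes were 6 for ribosome biogenesis, 4 for synthetases, 4 for translation factors, 6 for chaperones and 9 for the proteasome. On all of these lists the median kept its sign in each alternative.

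Among Bcl2 family survival genes, members passed in both directions. The share that rose was 23.1%, against 6.51% of all genes. The share that fell was 7.69%, below the 11.1% of all genes, and the median was 0.03. Bcl2, the anti-apoptotic founder of its family, was 10.10, 9.70 and 9.71 in Zeb2hi CDPs and 7.32 and 7.93 in pre-CD8 DCs (4.63-fold lower, adjusted p = 0.000597). Bmf, a BH3-only pro-apoptotic gene, was 4.87, 4.91 and 5.10 against 6.30 and 6.37 (2.59-fold higher, adjusted p = 0.00235). Mcl1, the anti-apoptotic gene on which many blood cells depend, was 0.79 higher (adjusted p = 0.0404). It passed in 10 of 18 alternatives, and not without pre-CD8 DC array 1 (adjusted p = 0.213), Zeb2hi array 1 or 2, or Zeb2low array 3. Of the 13 family genes measured 3 rose and 1 fell, and 1 rose without pre-CD8 DC array 1, Zeb2hi array 1 or 2, or Zeb2low array 3. Without Zeb2low array 1, 2 fell.

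Markers of other blood cells differed between arrays, also within a group. The 19 mature neutrophil genes measured had a mean log2 signal of 11.37 and 9.11 on pre-CD8 DC arrays 1 and 2, 7.29 to 8.84 on the Zeb2hi arrays, and 8.94, 10.90 and 9.79 on the Zeb2low arrays. The gap between the pre-CD8 DC arrays was larger than that between array 2 and the nearest Zeb2hi array. All 19 genes were higher by mean and 7 rose, 1 without pre-CD8 DC array 1, 13 without array 2 and 2 without Zeb2hi array 1 or 3. Wfdc21 passed in every alternative (7.71, 8.22 and 7.24 against 10.90 and 9.48), while Ly6g, a neutrophil surface antigen, was 5.77, 7.06 and 4.19 against 10.80 and 6.68 and did not pass. S100a8, a calprotectin subunit, was above 12 on every array of both groups, whereas Ly6g on Zeb2hi array 3 was below the array median.

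In the lists of other blood cells the shares of higher genes are to be read against the 6.51% of all genes, and those of lower genes against 11.1%. The shares of lower B cell genes (10%) and of lower erythroid and megakaryocyte genes (12.5%) were near it. Monocyte and macrophage genes gave 5 higher (27.8%) and 3 lower (16.7%) of 18, with 10 higher without pre-CD8 DC array 2 and 3 without array 1 or Zeb2hi array 2 or 3. T, NK and innate lymphoid cell genes gave 4 higher of 11 (36.4%), led by Thy1 (5.74, 5.78 and 5.48 against 7.49 and 7.53, 3.60-fold). B cell genes gave 3 higher (30%) and 1 lower of 10, with Cd22, an inhibitory receptor (5.31, 4.92 and 5.22 against 7.25 and 8.27, 6.08-fold), higher and Cd79b (8.21 ± 0.17 against 6.93 ± 0.20, SD, n = 3 and 2) lower. Only 1 B cell gene rose without pre-CD8 DC array 1 or Zeb2hi array 2 or 3. Erythroid and megakaryocyte genes gave 1 higher and 1 lower of 8, the latter Tfrc, the transferrin receptor (2.77-fold lower), and mast cell, basophil and eosinophil genes 1 higher of 8. The higher erythroid gene was lost without pre-CD8 DC array 1, Zeb2hi array 2 or 3 or Zeb2low array 2, and 2 rose without pre-CD8 DC array 2. In the mast cell list 3 rose without pre-CD8 DC array 2 or Zeb2low array 1 and 2 without Zeb2low array 3. The part of other cells in the results was not tested, beyond a fit with the neutrophil gene mean as a covariate, in which 365 genes rose and 662 fell.

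The pre-CD8 DC arrays did not match for every gene. They correlated at r = 0.937 across genes, below the 0.971 to 0.989 among Zeb2hi arrays. They were at least 1 log2 unit apart for 814 genes, of which 106 had passed the test (73 higher and 33 lower). Among these they were furthest apart for Il1r2, the decoy receptor of interleukin-1 (9.56 and 7.02, against 5.17, 5.79 and 4.21), which lost its call without array 1 (adjusted p = 0.185). H2-Aa, Cd74, Tlr3, Ifi205, Cxcr3 and Itgax differed between the pre-CD8 DC arrays by less than 0.7.

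Interferon-stimulated genes were among those higher on array 1. Of 21 measured, 10 rose and none fell (median 1.58), but the median was 2.05 on array 1 and 0.80 on array 2, and 6 rose without array 1 and 19 without array 2. Samd9l, an antiviral restriction factor gene, was the exception: 4.63, 5.36 and 4.36 in Zeb2hi CDPs against 9.31 and 9.39 (23.7-fold, adjusted p = 7.44e-05). Irf7 was 8.35 and 7.63 against a Zeb2hi mean of 5.53 ± 0.12 (SD, n = 3). Both genes passed in every alternative. The neutrophil genes were also higher on array 1, and whether the 2 patterns are linked was not tested. With the neutrophil covariate 4 of the 21 interferon-stimulated genes rose. Gbp3, an interferon-inducible gene not among the 21, fell (-2.66 from pre-CD8 DC array 2 alone and -1.86 from array 1 alone, adjusted p = 0.0012). The share of immediate early and stress genes that rose was 5.56%, against 6.51% of all genes. Of 18 immediate early and stress genes, which can mark handling, 1 rose, Zfp36 (1.10, adjusted p = 0.0169), with none without pre-CD8 DC array 1 or Zeb2hi array 2, 5 without Zeb2hi array 3 and 3 without Zeb2low array 1.

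**Figure D5:**
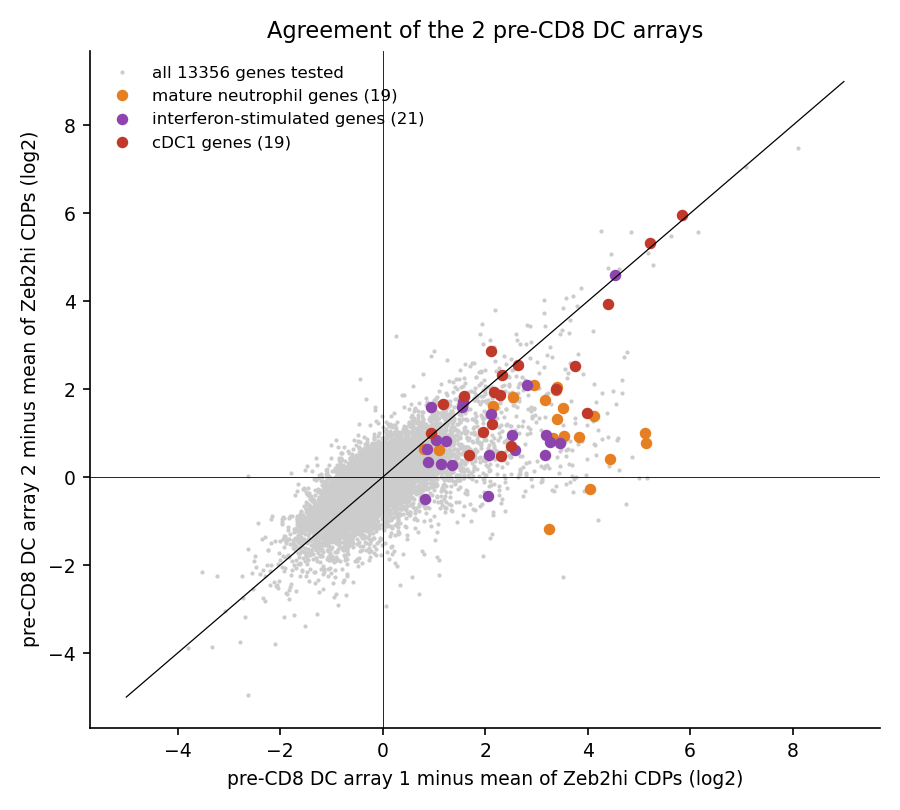
Difference of pre-CD8 DC array 2 (vertical) against array 1 (horizontal) from the mean of the 3 Zeb2hi CDP arrays (log2) for all 13356 genes tested. Mature neutrophil genes (orange, list medians 3.40 on array 1 and 1.01 on array 2) and interferon-stimulated genes (purple, 2.05 and 0.80) lie mostly below the line of equal difference, while cDC1 genes (red, 2.31 and 1.88) lie nearer to it.

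The Zeb2low arrays place these changes, with the caution that each comparison shares arrays with the others. Only 74 genes (0.554%) differed between pre-CD8 DCs and Zeb2low CDPs. For 32 genes that passed in both comparisons in the same direction (15 higher and 17 lower), Zeb2low CDPs lay within 0.5 log2 units of Zeb2hi CDPs, so that the gene differed in pre-CD8 DCs from both. Rasgrp3, a Ras activator, was 3.24 ± 0.13 in Zeb2hi CDPs, 3.43 ± 0.13 in Zeb2low CDPs and 5.79 ± 0.92 in pre-CD8 DCs (SD, n = 3, 3 and 2). Cd36, a scavenger receptor of cDC1s, was 2.57 ± 0.21, 2.99 ± 0.17 and 5.26 ± 0.98. The lower genes of this kind included Ccnd2 (10.06 ± 0.20, 10.00 ± 0.09 and 7.94 ± 0.18) and Chek1, the replication checkpoint kinase (7.48 ± 0.11, 7.17 ± 0.13 and 5.88 ± 0.01).

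By contrast, 451 of the 869 higher and 1038 of the 1483 lower genes had a Zeb2low mean within 0.5 of that of pre-CD8 DCs. The share of all genes this close was not counted. Only 0.554% of all genes differed between these 2 groups by the test, which does not give that share. Whether the counts are particular to these genes is therefore not known. Id2 was at 10.07 ± 0.11 in Zeb2low CDPs and 10.49 ± 0.44 in pre-CD8 DCs, and Rnf144b, a ubiquitin ligase gene, at 8.65 ± 0.36 and 9.09 ± 0.46, against 5.96 ± 0.20 in Zeb2hi CDPs. Rida, which removes reactive enamines, was at 3.99 ± 0.13 and 3.83 ± 0.03, against 6.11 ± 0.14. Zeb2low CDPs lay between the other groups for H2-Eb1, which was 5.24 ± 0.38 in Zeb2hi CDPs, 7.60 ± 0.12 in Zeb2low CDPs and 10.80 ± 0.10 in pre-CD8 DCs, each step larger than the spread within any of the groups. Cd93 ran the other way, at 10.45 ± 0.09, 9.36 ± 0.27 and 7.39 ± 0.02.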

How the data were processed

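RNA of 8 sorted bone marrow samples was amplified with a whole-transcriptome kit and hybridised to Affymetrix arrays, 1 array per sample. The deposited values are linear intensity values per probe set, to which the authors applied RMA. The submitters' processing notes name Affymetrix Expression Console for it and no version. Since RMA makes no detection call, a difference from a gene near the floor can be too small. Of 28853 probe sets, 21789 name 1 gene in the platform annotation. Those naming several genes (1621) or none used here (5443) were left out.

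On the log2 scale, a probe set was kept if it exceeded the 40th percentile of the array on 2 or more arrays, and the probe set with the highest mean stood for its gene. Groups, taken from the titles, entered 1 limma fit (version 3.58.1, R 4.3.3, lmFit then eBayes, two-sided) over all 8 arrays (5 residual degrees of freedom), with Benjamini-Hochberg adjustment over 13356 genes at 0.05. A value after ± is limma's standard error with a difference and the SD with a level. Precision is limited by how few arrays there are. The fit was tested on simulated data. The 42 gene lists, written from textbook knowledge, and the members were chosen with earlier results of these data known. They overlap, and were counted without a test. 1 list is not reported here. Genes named were the markers, the 15 largest differences per direction, the listed transcription factors, up to 3 members past the test per list and direction, the 8 calls with the pre-CD8 DC arrays furthest apart, and those that set pre-CD8 DCs apart from both CDP groups or put Zeb2low CDPs next to them (6 and 4 per direction). Other members are given where a list's account needs them, and were chosen after their values were seen. Not all are printed. Alternatives were the signal filter, 2 scalings, the 5 arrays alone, the replicate number as a block, array weights, eBayes with trend and robust, the mean of a gene's probe sets, leaving out each array, and the neutrophil covariate, which was added after seeing the data.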

Additional observations from a re-analysis of the deposited data

How the results depend on the processing

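No gene past the test both as reported and in an alternative changed sign. The reported counts were 869 higher and 1483 lower genes, and 508 and 698 at least 2-fold. Over the 8 fits without 1 array they ran from 463 to 1046 higher and from 709 to 1729 lower, and at least 2-fold from 395 to 791 higher and from 507 to 789 lower. With the neutrophil gene mean as a covariate, chosen after seeing the data, 365 rose and 662 fell; the fit has 1 residual degree of freedom fewer. The labels do not say whether arrays that share a replicate number belong together. Deviations from the group means correlated at -0.172 for the pre-CD8 DC and Zeb2hi arrays numbered 1 and -0.312 for those numbered 2. With 2 pre-CD8 DC arrays the deviations of one mirror those of the other, so these correlations cannot decide whether arrays were paired. With the number as a replicate block 595 genes rose and 998 fell. Quantile normalization gave 927 and 1130. A filter at the 60th percentile gave 765 and 1404, no filter 854 and 1411, and the 5 arrays alone 802 and 1370. Of 179 named genes past the test, 107 passed in each alternative in which they were measured (up to 18) and 119 in each fit without 1 array. The larger changes of sign in list medians were 4, and they were not set against the replicate spread. For B cell genes the median was 0.23 over 10 genes and -0.69 over the 4 left by the 60th percentile filter. These are not the same set of genes. For monocyte genes it was 0.72 as reported and -0.14 with the covariate. Over the fits without 1 array it ran from -0.036 (without pre-CD8 DC array 1) to 1.35. For cDC2 genes it was 0.62 as reported and -0.20 with the covariate. The cause was not tested. Medians near 0 (transcription factors, class I, cytokine receptors, lysosomal, mitosis, glycolysis, cholesterol and Bcl2 lists) also crossed it. Leaving out 1 of the 2 pre-CD8 DC arrays leaves 1, assumed to vary like the other groups. Signals near the array medians limit what can be said of genes low in both groups.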
